A study of Mus musculus with 24 samples.

Results

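The steroid synthesis and inactivation enzymes described here were 10 genes chosen by name for their roles in making, reducing or inactivating steroid hormones, out of 55401 genes in the count table of the mouse maternal-fetal interface (MFI): *Star*, *Cyp11a1*, *Hsd3b1*, *Hsd3b6*, *Cyp17a1*, *Hsd17b2*, *Hsd11b1*, *Hsd11b2*, *Akr1c18* and *Srd5a1*. The study compared the MFI, that is decidua and placenta in one sample, between wild-type (WT) mice and mice lacking *C1qtnf6*, the gene of the secreted protein CTRP6, at 4 gestation days (gd10.5, gd14.5, gd16.5, then gd19.5 just before birth, with the morning of the vaginal plug as gd0.5). Each combination of genotype and stage had 3 bulk RNA-seq libraries, 24 in all. All mice were on the C57BL/6 background, and the C1qtnf6-KO (KO) mice were homozygous for a germline CRISPR deletion of 3 exons that affected every tissue, with no other allele or agent in either genotype. The labels named no litter, dam, fetal sex or collection date, so the p-values below measure only the spread between libraries, which may be technical. Because the tissue was taken whole, fewer cells of a type and less RNA per cell cannot be told apart in any of the values.

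Steroid hormones are made from cholesterol. STAR carries cholesterol to the inner mitochondrial membrane, CYP11A1 cleaves its side chain to give pregnenolone, the 3-beta-hydroxysteroid dehydrogenases (HSD3B1 and HSD3B6 in the mouse) turn pregnenolone into progesterone, and CYP17A1 takes these steroids towards androgens. Other enzymes limit the active hormone: AKR1C18 and SRD5A1 reduce progesterone, HSD17B2 oxidises estradiol and testosterone to weaker forms, HSD11B2 inactivates corticosterone and HSD11B1 regenerates it. In mouse pregnancy the ovary supplies circulating progesterone to term, while trophoblast giant cells and the decidua carry steroid enzymes of their own.

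Depth and cell makeup set the frame for the values. The libraries held 20975717 to 37383108 counted fragments, so that 3 counts, used as the floor of detection, stood for 0.0803 to 0.143 CPM (counts scaled to a common library size). *C1qtnf6* averaged 67.1 to 158 CPM in the WT groups and 0.416 to 1.05 CPM in the KO groups, and was called lower at all 4 stages. The labelled tissue showed its markers in every library, with 4198 to 29885 CPM summed over 5 trophoblast giant cell markers and at least 1534 CPM over 5 decidual stroma markers, and 5 ovarian markers together reached at most 5.57 CPM. Some libraries stood apart. KO gd10.5 replicate 2 had 151 CPM of *Prl3d1*, an early giant cell hormone that reached 1353 to 1937 CPM in the 3 WT libraries of that stage, and its 5 spongiotrophoblast and glycogen cell markers summed to 11766 CPM against 780 to 2031 CPM in the other 5 libraries of that stage. At gd16.5, WT replicate 1 and KO replicates 1 and 2 carried 7677 to 21593 CPM of 5 yolk sac endoderm markers, whereas the other 3 libraries of that stage held 204 to 240 CPM. The same split was present at gd10.5, with 3778 CPM of these markers in WT replicate 1 and 1250 to 3651 CPM in the 3 KO libraries against 36.1 and 34.1 CPM in WT replicates 2 and 3, so that at this stage yolk sac transcripts and genotype can hardly be told apart. Values without KO gd10.5 replicate 2 or without the yolk sac-rich libraries of gd16.5 are given beside the results they move most.

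All 10 enzymes are protein-coding, and their coordinates on GRCm38 are given as in the count table. *Hsd3b6* (chromosome 3, 98805504 to 98814443, minus strand) and *Hsd3b1* (chromosome 3, 98852194 to 98859794, minus strand) are neighbours of one gene cluster, and their transcripts shared 88.0% identity over 1342 aligned bases. A closer relative of *Hsd3b6* was *Hsd3b2*, with 92.5% identity over 1670 bases, although *Hsd3b2* itself had at most 10 counts in any library. Reads that fit more than one of these genes equally well were left out by the counting, so their levels are uncertain in that respect. Exons of *Cyp11a1* overlapped those of *Gm17322* on the same strand, and exons of *Srd5a1* overlapped those of *Gm17108*. The overlapping genes had at most 70 and 14 counts. How many reads *Cyp11a1* and *Srd5a1* lost in the shared exons was not tested.

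The promoters shown are those of the 4 members with a window that held a match to a motif named below. Of these, *Hsd3b6*, *Cyp11a1* and *Akr1c18* fell after gd10.5, as did *Srd5a1*, whose window held no match and is not printed. *Hsd3b1*, the close relative of *Hsd3b6*, was far weaker and was raised in 3 libraries of gd16.5. RefSeq windows of 300 bases (250 before and 50 after the start, build GRCm38.p6) were at hand for 6 of the 10 members. They were searched on both strands for the nuclear receptor motif AGGTCA, the GATA factor motif AGATAA, the AP-2 motif GCCNNNGGC and the TATA box TATAAA. Capitals mark the matches, and each sequence is printed 5′ to 3′ on the strand of the gene. The windows lie at chr3:98814394-98814693 (minus) for *Hsd3b6*, chr3:98859745-98860044 (minus) for *Hsd3b1*, chr9:58014702-58015001 (plus) for the start of *Cyp11a1* inside the annotated gene and chr13:4150597-4150896 (minus) for *Akr1c18*.
Hsd3b6: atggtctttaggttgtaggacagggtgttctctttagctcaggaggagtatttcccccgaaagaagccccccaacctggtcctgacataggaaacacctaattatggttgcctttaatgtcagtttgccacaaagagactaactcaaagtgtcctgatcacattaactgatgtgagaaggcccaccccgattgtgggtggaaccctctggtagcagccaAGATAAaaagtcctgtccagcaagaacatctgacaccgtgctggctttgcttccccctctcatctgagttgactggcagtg
Hsd3b1: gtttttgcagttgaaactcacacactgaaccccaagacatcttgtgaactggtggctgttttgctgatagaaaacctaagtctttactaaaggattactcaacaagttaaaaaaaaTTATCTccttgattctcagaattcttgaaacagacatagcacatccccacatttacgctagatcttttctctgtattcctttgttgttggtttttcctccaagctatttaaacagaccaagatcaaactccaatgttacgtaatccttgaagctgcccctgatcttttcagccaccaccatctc
Cyp11a1: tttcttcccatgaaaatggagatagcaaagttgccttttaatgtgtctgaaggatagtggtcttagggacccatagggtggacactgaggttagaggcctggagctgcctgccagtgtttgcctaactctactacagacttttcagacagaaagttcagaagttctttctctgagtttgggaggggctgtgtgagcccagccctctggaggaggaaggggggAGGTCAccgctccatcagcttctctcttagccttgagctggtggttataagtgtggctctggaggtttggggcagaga
Akr1c18: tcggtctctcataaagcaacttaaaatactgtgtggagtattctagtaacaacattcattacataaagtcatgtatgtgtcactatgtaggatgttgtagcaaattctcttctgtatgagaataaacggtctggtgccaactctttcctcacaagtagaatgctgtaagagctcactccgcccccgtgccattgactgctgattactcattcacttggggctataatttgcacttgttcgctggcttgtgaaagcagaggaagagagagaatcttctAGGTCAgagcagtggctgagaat

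AGATAA began 31 bases before the start of *Hsd3b6*. In the *Hsd3b1* window AGATAA lay on the opposite strand, so that the printed strand reads TTATCT. The first printed base of that match lay 134 bases before the start. AGGTCA began 28 bases before the start of *Cyp11a1* and 27 bases after that of *Akr1c18*. Such matches are common: of 32851 RefSeq promoter windows of the same length, 11.2% held AGATAA and 16.3% held AGGTCA, and 16.6% held GCCNNNGGC and 13.6% held TATAAA. No match to any of the 4 motifs lay in the windows of *Hsd11b1* and *Srd5a1* or in a further *Cyp11a1* window upstream of the annotated gene. No matches of different motifs overlapped. The matches describe the letters in the windows and nothing about binding.

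The expression of the steroid enzymes changed far more with gestation than with genotype. A gene was called where edgeR's quasi-likelihood test gave a Benjamini-Hochberg adjusted p under 0.05 over all genes tested and the log2 fold change exceeded 1 in size. From gd10.5 to gd14.5, 6 of the 10 enzymes were called lower and 0 higher in WT, where 11.6% of the 18523 genes tested were called lower and 10.7% higher. The same 6 enzymes (*Star*, *Cyp11a1*, *Hsd3b6*, *Cyp17a1*, *Akr1c18* and *Srd5a1*) were called lower in KO, with 0 higher, against 10.2% of 18467 genes lower and 8.53% higher. The median log2 change of the 10 enzymes at this step was -2.06 in WT and -1.91 in KO, beside -0.01 and 0.00 over all genes tested.
The later steps moved fewer of them. Between gd14.5 and gd16.5, 1 enzyme was called lower in WT (*Hsd11b2*) and 0 higher, with 2.55% and 3.04% of all genes called lower and higher. In KO 1 was called lower (*Hsd11b2*) and 2 higher (*Cyp17a1* and *Hsd3b1*), with 2.76% and 4.78% of all genes. Between gd16.5 and gd19.5, 2 were called higher in WT (*Cyp17a1* and *Hsd3b6*) and 0 lower, beside 1.20% and 0.939% of all genes. In KO at that step 0 were called in either direction by edgeR, although 2 had an unadjusted p under 0.05 (18.3% of all genes did), DESeq2 called 1 and limma voom 0, and 0.255% and 0.439% of all genes were called higher and lower.

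**Figure D1:**
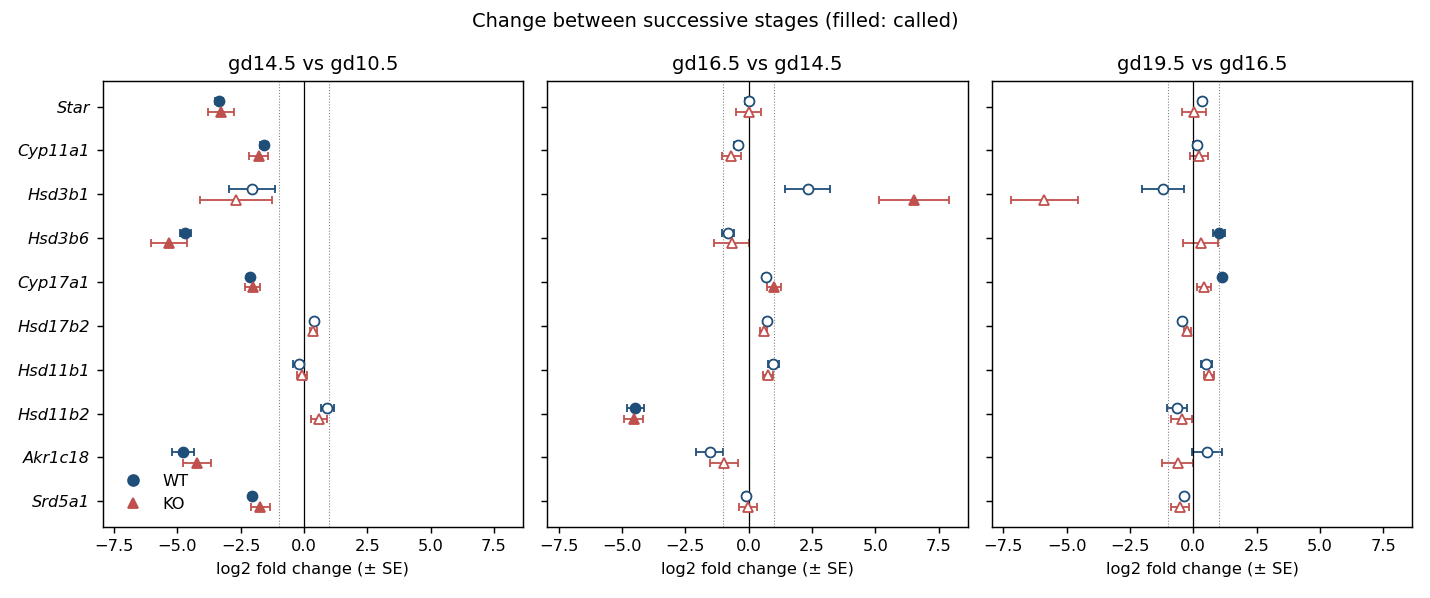
Log2 fold changes (± SE, edgeR) of the 10 enzymes between successive stages, with blue circles for WT and red triangles for KO, filled where called and with dotted lines at -1 and 1. At the first step the 6 called enzymes lie left of -1 in both genotypes, between -1.57 and -5.34. *Hsd3b1* also lies left of -1 there (-2.05 in WT and -2.68 in KO) but was not called. *Hsd11b2* falls by over 4 log2 units at the second step.

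The genes that start the pathway were highest at gd10.5. *Star*, the cholesterol carrier (chromosome 8, 25806555 to 25815982, plus strand), stood at 699, 472 and 542 CPM in the WT libraries of gd10.5, at 52.4, 50.6 and 65.0 CPM at gd14.5, at 53.6, 55.3 and 60.6 CPM at gd16.5 and at 63.1, 71.9 and 81.2 CPM at gd19.5. In KO it stood at 1155, 179 and 651 CPM at gd10.5, then at 58.4 to 74.3 CPM at gd14.5, 65.0 to 69.8 CPM at gd16.5 and 47.3 to 92.1 CPM at gd19.5. Every gd10.5 library lay above every later one, and the later libraries of both genotypes lay within 47.3 to 92.1 CPM. The fall from gd10.5 to gd14.5 was 10.2-fold in WT, a log2 change of -3.35 (SE 0.16, edgeR adjusted p = 5.91e-09), and -3.29 in KO (SE 0.52, adjusted p = 0.000694). Without KO gd10.5 replicate 2, the lowest library of its group, the KO change was -3.73.

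*Cyp11a1*, the side-chain cleavage enzyme (chromosome 9, 58006411 to 58027023, plus strand), kept more of its early level. The WT libraries held 760, 765 and 638 CPM at gd10.5, 237, 254 and 234 CPM at gd14.5, 157, 144 and 245 CPM at gd16.5 and 224, 182 and 201 CPM at gd19.5. The KO libraries held 1168, 324 and 856 CPM at gd10.5 and 115 to 258 CPM at the later stages. The first step again separated the stages completely in both genotypes, with a fall of 2.97-fold in WT (log2 change -1.57, SE 0.17, edgeR adjusted p = 5.31e-06) and a log2 change of -1.78 in KO (SE 0.37, adjusted p = 0.00299), or -2.15 without KO gd10.5 replicate 2. The later steps of *Cyp11a1* did not pass the test. Per length, *Cyp11a1* averaged 37.9 to 50.3 CPM per kilobase of exon (RPKM) in the later WT groups and *Star* 13.6 to 17.5 RPKM, whereas at gd10.5 the WT means were close, 150 ± 14.9 and 139 ± 28.2 RPKM (SD, n = 3).

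The pair of 3-beta-hydroxysteroid dehydrogenases differed in level and in course. *Hsd3b6* held 208, 145 and 162 CPM in the WT libraries of gd10.5, 7.05, 6.10 and 6.90 CPM at gd14.5, 3.84, 4.68 and 2.77 CPM at gd16.5 and 7.40, 5.64 and 10.1 CPM at gd19.5. In KO it held 587, 50.9 and 231 CPM at gd10.5 and 3.42 to 9.69 CPM later. The gd10.5 libraries lay above all others in both genotypes. Its fall to gd14.5 was 25.6-fold in WT (log2 change -4.68, SE 0.21, edgeR adjusted p = 4.26e-09) and -5.34 on the log2 scale in KO (SE 0.72, adjusted p = 0.000312; -5.83 without KO gd10.5 replicate 2). In WT a smaller decrease to gd16.5 (-0.81, adjusted p = 0.0241) lay under the fold limit, and the rise from gd16.5 to gd19.5 was 2.04-fold (log2 change 1.03, SE 0.23, edgeR adjusted p = 0.02), with no overlap between the stages. That rise sits at the fold limit, and it was called in 9 of 15 alternative settings. It was lost without WT gd16.5 replicate 1 (1.03, edgeR adjusted p = 0.0527), WT gd16.5 replicate 3 (0.85, adjusted p = 0.0792) or WT gd19.5 replicate 3 (0.78, adjusted p = 0.0897).

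*Hsd3b1* was close to the floor in most libraries. At gd10.5 it held 1.72 CPM in WT replicate 1 and 1.35 to 1.56 CPM in the 3 KO libraries, the 4 libraries with more yolk sac transcripts, and 0.540 and 0.803 CPM in WT replicates 2 and 3 (19 to 50 counts in all 6). It had 3 to 10 counts at gd14.5 and 7 to 19 counts at gd19.5. Its log2 change from gd10.5 to gd14.5 was -2.05 in WT and -2.68 in KO, and edgeR called neither. That fall was called in 4 of 14 alternative settings in WT and in 2 of 14 in KO. At gd16.5 the WT libraries had 75, 6 and 5 counts and the KO libraries 149, 1795 and 6 counts, that is 3.10, 0.265 and 0.243 CPM against 7.42, 55.3 and 0.273 CPM. The 3 raised libraries were WT replicate 1 and KO replicates 1 and 2, and the other 3 lay within 0.243 to 0.273 CPM whatever their genotype. These were the same 3 libraries that carried the yolk sac endoderm markers (8026 CPM in WT replicate 1, 7677 and 21593 CPM in KO replicates 1 and 2), and they also held 89.1 to 194 CPM of 4 Y-linked genes, against at most 1.14 CPM in the other 3. *Hsd3b1* followed the summed yolk sac markers over the 24 libraries with r = 0.84, and with r = 0.81 after the group means were taken off. The part of these markers in the *Hsd3b1* values was not tested. In KO the rise from gd14.5 to gd16.5 was called (log2 change 6.53, SE 1.37, edgeR adjusted p = 0.00949) although the stages overlapped. Without KO gd16.5 replicate 2 it was 4.06 (edgeR adjusted p = 0.0238). Without both yolk sac-rich KO libraries it was 0.30, in an alternative chosen after seeing the data that kept only replicate 3 of KO gd16.5. Both libraries left out there were the raised ones, so a small value was fixed beforehand. In WT the corresponding change of 2.33 (SE 0.90, edgeR adjusted p = 0.082) became 0.09 without WT replicate 1.

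**Figure D2:**
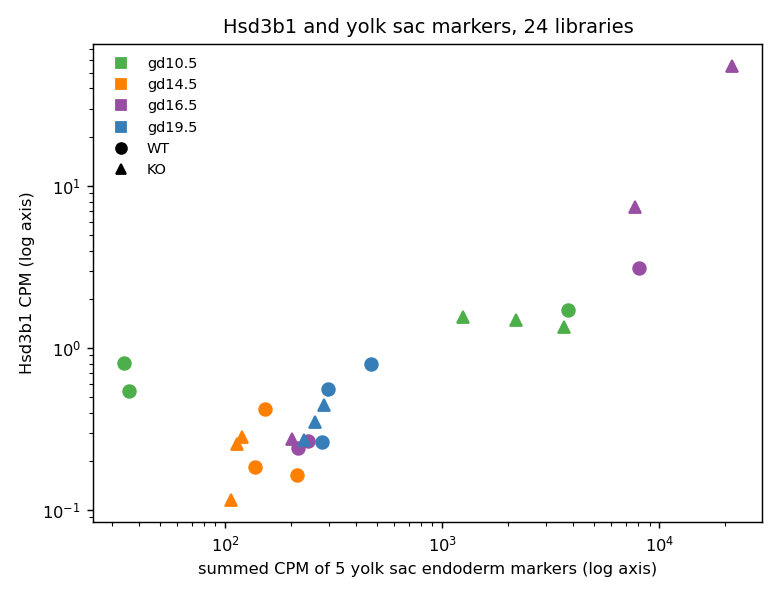
*Hsd3b1* CPM against the summed CPM of 5 yolk sac endoderm markers in the 24 libraries, both on log axes, coloured by stage with circles for WT and triangles for KO. The 3 gd16.5 libraries at 7677 to 21593 CPM of the markers hold 3.10 to 55.3 CPM of *Hsd3b1*, and the other 3 of that stage lie at or under 0.273 CPM.

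*Cyp17a1*, the 17-alpha-hydroxylase and lyase that leads to androgens (chromosome 19, 46667165 to 46673172, minus strand), fell and then recovered. The WT libraries stood at 152, 132 and 160 CPM at gd10.5, at 31.6, 32.8 and 35.6 CPM at gd14.5, at 51.6, 62.5 and 45.4 CPM at gd16.5 and at 113, 109 and 128 CPM at gd19.5. The KO libraries stood at 259, 98.8 and 132 CPM, at 41.8, 36.8 and 41.6 CPM, at 93.3, 82.7 and 66.3 CPM and at 109, 103 and 118 CPM at the same stages. Within each genotype no library of gd14.5 overlapped its neighbours in time, and the lowest stage was gd14.5 in both. In WT the fall was 4.43-fold (log2 change -2.15, SE 0.12, edgeR adjusted p = 2.46e-08), the first part of the recovery 0.68 on the log2 scale (SE 0.12, adjusted p = 0.00129, under the fold limit) and the second part 1.14 (SE 0.12, adjusted p = 0.000206, 2.2-fold). In KO the fall was -2.03 (SE 0.29, edgeR adjusted p = 0.000369; -2.29 without KO gd10.5 replicate 2), the rise to gd16.5 1.01 (SE 0.28, adjusted p = 0.0299) and the further change to gd19.5 0.44 (SE 0.28, adjusted p = 0.424). The KO rise to gd16.5 also sits at the fold limit and was called in 9 of 16 alternative settings. It was 0.74 without both yolk sac-rich KO libraries, in a fit chosen after seeing the data that kept only replicate 3 of KO gd16.5. Without any one of gd14.5 replicates 1 to 3 or gd16.5 replicates 1 and 2 it ran from 0.90 to 1.06 and lost the call, with an adjusted p of 0.0679 to 0.109.

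**Figure D3:**
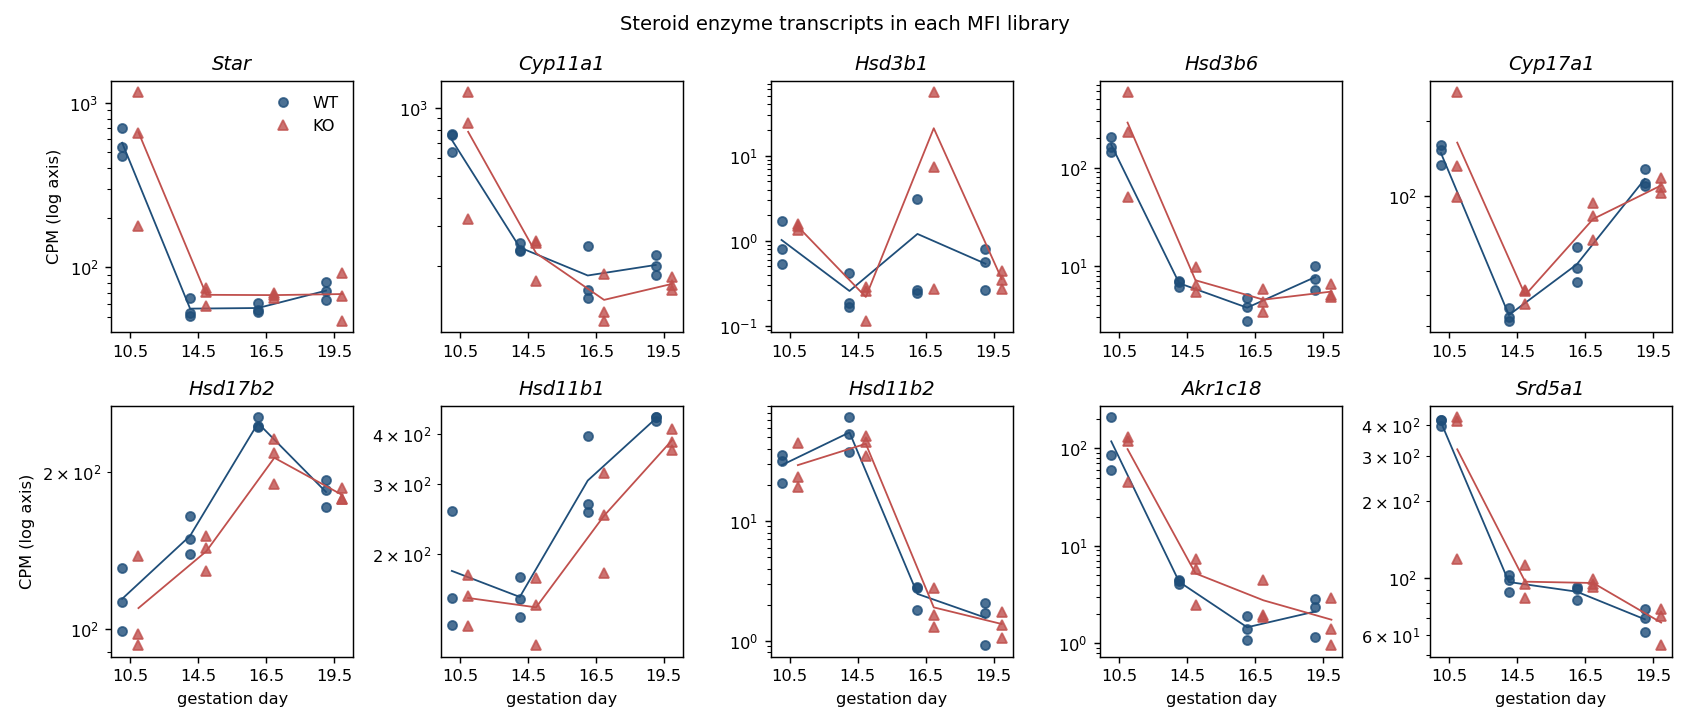
CPM of each enzyme in each library on log axes, by gestation day, with blue circles for WT and red triangles for KO and lines through the group means (n = 3). *Star*, *Cyp11a1*, *Hsd3b6*, *Akr1c18* and *Srd5a1* drop after gd10.5 and stay low, *Cyp17a1* drops and returns to 103 to 128 CPM at gd19.5, *Hsd11b2* drops after gd14.5 and *Hsd11b1* is highest at gd19.5.

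The reductases of progesterone were also early transcripts. *Akr1c18*, the 20-alpha-hydroxysteroid dehydrogenase that converts progesterone to a weaker product (chromosome 13, 4132615 to 4150654, minus strand), held 84.8, 209 and 60.0 CPM in WT and 132, 44.7 and 118 CPM in KO at gd10.5. At gd14.5 it held 4.37, 4.03 and 4.42 CPM in WT and 5.85, 7.31 and 2.49 CPM in KO, and from gd16.5 on it lay between 0.953 and 4.48 CPM. The gd10.5 libraries spread widely within each genotype and still lay above all others. The fall from gd10.5 to gd14.5 was as steep as that of *Hsd3b6* within the SE, 27.6-fold in WT (log2 change -4.79, SE 0.43, edgeR adjusted p = 1.24e-06), and was -4.22 in KO (SE 0.54, adjusted p = 0.000237; -4.56 without KO gd10.5 replicate 2). The next step in WT, -1.54 on the log2 scale, did not pass the test (SE 0.53, edgeR adjusted p = 0.055) although the stages did not overlap. No rise of *Akr1c18* before birth passed the test: the change from gd16.5 to gd19.5 was 0.53 in WT (SE 0.60, adjusted p = 0.628) and -0.62 in KO (SE 0.61, adjusted p = 0.634), with overlapping stages.

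*Srd5a1*, the steroid 5-alpha-reductase (chromosome 13, 69573449 to 69611442, minus strand), had the tightest early group of the enzymes in WT, 416, 393 and 416 CPM at gd10.5, followed by 103, 88.8 and 98.2 CPM at gd14.5. In KO the gd10.5 values were 428, 119 and 413 CPM, with replicate 2 far below the other 5 libraries of the stage. The later libraries of both genotypes lay between 54.6 and 112 CPM. The fall at the first step was 4.21-fold in WT (log2 change -2.07, SE 0.09, edgeR adjusted p = 3.3e-09) and -1.73 in KO (SE 0.36, adjusted p = 0.00314), which became -2.11 without KO gd10.5 replicate 2. Between gd16.5 and gd19.5 a decrease of 0.35 on the log2 scale passed the p limit but not the fold limit in WT (edgeR adjusted p = 0.0312).

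*Hsd17b2*, which oxidises estradiol and testosterone (chromosome 8, 117701904 to 117759027, plus strand), moved the other way from the early enzymes, within a narrow range. Its WT libraries held 131, 98.9 and 113 CPM at gd10.5, 149, 165 and 139 CPM at gd14.5, 246, 245 and 256 CPM at gd16.5 and 193, 185 and 172 CPM at gd19.5. The KO libraries held 138, 97.7 and 92.8 CPM, 129, 143 and 151 CPM, 218, 190 and 232 CPM and 187, 178 and 178 CPM. In both genotypes gd16.5 was the highest stage and no gd16.5 library overlapped another stage. All 3 WT steps passed the p limit under the fold limit, with log2 changes of 0.41 (edgeR adjusted p = 0.00336), 0.73 (adjusted p = 0.000274) and -0.44 (adjusted p = 0.0192). In KO only the step to gd16.5 did so (0.60, SE 0.14, edgeR adjusted p = 0.0138), and the interaction of genotype and stage did not pass for *Hsd17b2* (adjusted p = 0.925).

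The enzymes of corticosterone went in opposite directions after gd14.5. *Hsd11b2*, which inactivates corticosterone (chromosome 8, 105518755 to 105523988, plus strand), held 31.4, 20.7 and 35.3 CPM in WT at gd10.5, 73.4, 37.6 and 53.1 CPM at gd14.5, 2.81, 1.81 and 2.77 CPM at gd16.5 and 1.71, 2.05 and 0.917 CPM at gd19.5. In KO it held 19.1, 45.0 and 23.4 CPM, 45.8, 51.4 and 34.8 CPM, 1.29, 1.63 and 2.78 CPM and 1.35, 1.74 and 1.06 CPM. The libraries of the first pair of stages lay above all libraries of the second pair in both genotypes, with counts of at least 513 against at most 68. From gd14.5 to gd16.5 the fall was 22.1-fold in WT (log2 change -4.47, SE 0.32, edgeR adjusted p = 3.03e-06) and 23.1-fold in KO (-4.53, SE 0.38, adjusted p = 0.000114). Without both yolk sac-rich KO libraries the KO fall was -3.97, in a fit chosen after seeing the data that kept only replicate 3 of KO gd16.5. The earlier increase from gd10.5 to gd14.5 in WT was 0.92 (SE 0.26, edgeR adjusted p = 0.00788), under the fold limit, and in KO it was 0.59 (adjusted p = 0.136), or 1.05 (adjusted p = 0.00231) without KO gd10.5 replicate 2, which held the highest value of its group.

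*Hsd11b1*, which regenerates corticosterone (chromosome 1, 193221634 to 193264075, minus strand), held 156, 257 and 133 CPM at gd10.5, 176, 154 and 139 CPM at gd14.5, 256, 395 and 267 CPM at gd16.5 and 430, 441 and 441 CPM at gd19.5 in WT. The KO libraries held 132, 157 and 177 CPM, 175, 149 and 118 CPM, 319, 180 and 251 CPM and 381, 365 and 413 CPM. The first pair of stages overlapped, and the gd19.5 libraries lay above all others of their genotype. The rise from gd14.5 to gd16.5 was 0.97 on the log2 scale in WT (SE 0.22, edgeR adjusted p = 0.00686) and 0.76 in KO (SE 0.20, adjusted p = 0.0237), both under the fold limit, and the further change to gd19.5 was 0.52 and 0.63 (adjusted p = 0.164 and 0.126). *Lamb3*, on the opposite strand, overlaps the *Hsd11b1* gene without sharing exons and had 43 to 1193 counts.

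Ratios of paired transcripts within a library do not depend on how libraries are scaled. Each was taken per length with a prior count of 0.5, and stages were compared by a two-sided exact permutation test within genotype, adjusted over 9 steps, in which 0.005 was the smallest p possible. The *Hsd11b1* to *Hsd11b2* ratio was 1.62 to 5.37 in WT and 1.51 to 3.27 in KO at gd10.5, 1.04 to 1.78 and 1.26 to 1.65 at gd14.5, 39.1 to 93.3 and 38.7 to 105 at gd16.5, and 92.1 to 204 and 89.9 to 167 at gd19.5. The regenerating enzyme was thus the more abundant transcript per length in all 24 libraries, by little at gd14.5 and by far from gd16.5 on. The 3 log2 steps were -0.91 (exact permutation, adjusted p = 0.0375), 5.35 (adjusted p = 0.0225) and 1.16 (adjusted p = 0.0375), each in the same direction in both genotypes. The middle step passed whichever library was left out (adjusted p at most 0.0225), whereas the first step was lost with 8 of 12 libraries and the last with 7 of 12.
The *Akr1c18* to *Cyp11a1* ratio, a reductase of progesterone against the enzyme that starts its synthesis, was 0.375 to 1.09 in WT and 0.450 to 0.550 in KO at gd10.5 and 0.0578 to 0.113 over both genotypes at gd14.5, a log2 step of -2.81 (exact permutation, adjusted p = 0.0225). The later steps of -0.66 and -0.33 did not pass (adjusted p = 0.129 and 0.445). The *Hsd3b6* to *Hsd3b1* ratio was 33.2 to 399 at gd10.5 and 12.8 to 41.9 at gd14.5 and gd19.5, while at gd16.5 it ran from 0.0639 to 20.5, with *Hsd3b1* the more abundant transcript in KO replicates 1 and 2. Its log2 steps were -2.40 (exact permutation, adjusted p = 0.0338), -3.65 (adjusted p = 0.03) and 2.68 (adjusted p = 0.129), and the second was lost when any of 5 of the 12 libraries was left out, with an adjusted p of up to 0.09.

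**Figure D4:**
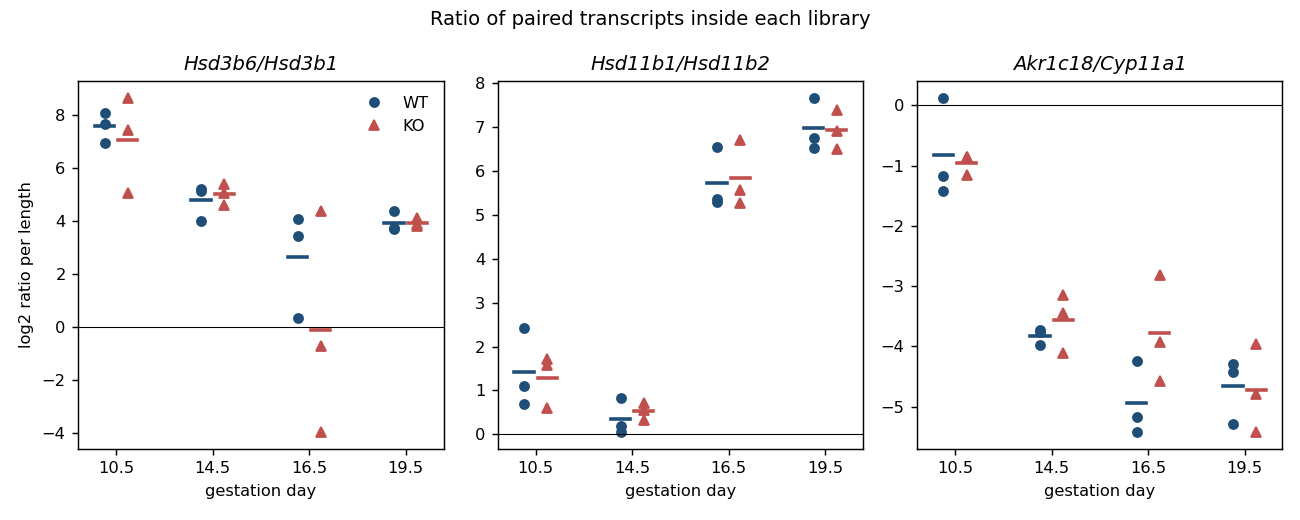
Log2 ratio per length of 3 pairs of transcripts in each library by gestation day, with blue circles for WT, red triangles for KO, short bars for group means and a line at 0 where both transcripts are equal. The *Hsd11b1* to *Hsd11b2* ratio stays under 2.43 up to gd14.5 and lies at 5.27 or above from gd16.5 on.

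Loss of *C1qtnf6* gave no call among the enzymes. edgeR called 0 of 10 at gd10.5, where 0.00572% of all genes tested were called, and 0 of the 9 enzymes tested at gd14.5, where 0.0166% were. It called 0 of 10 at gd16.5, beside 0.00586% of all genes, and 0 of 10 at gd19.5, beside 0.0230%. *C1qtnf6* was among the called genes each time. Over all stages 0 of 10 were called beside 0.0104% of all genes, and the interaction of genotype and stage called 0 of 10 beside 0%. DESeq2 and limma voom called 0 of the enzymes in each of these comparisons too. At an unadjusted p under 0.05 there were 0, 2, 4 and 3 enzymes at the 4 stages in turn, beside 0.801%, 6.78%, 11.1% and 13.5% of all genes tested. There were 0 over all stages and 1 in the interaction at that limit, beside 6.34% and 7.23% of all genes. *Hsd3b1* was too weak to be tested at gd14.5. The failure to pass does not show that the genotypes were alike, since the largest SE at a single stage was 1.57 on the log2 scale for *Hsd3b1* and up to 0.75 for the others.

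The genotypes separated completely for a few enzymes, without passing the adjustment over all genes in the main edgeR fits. With 3 libraries against 3, some genes separate without a true difference. The share of all genes that separated was not counted, so the cases below cannot be set against it. *Cyp17a1* was higher in every KO library than in every WT library at gd14.5 (40.1 ± 2.81 against 33.3 ± 2.03 CPM, SD, n = 3) and at gd16.5 (80.8 ± 13.6 against 53.2 ± 8.70 CPM). The log2 differences were 0.26 (SE 0.07, edgeR adjusted p = 0.648) and 0.62 (SE 0.16, adjusted p = 0.376), and at gd10.5 and gd19.5 the genotypes overlapped, with differences of 0.14 and -0.11. *Star* was also higher in every KO library at gd16.5, by 0.27 (SE 0.07, edgeR adjusted p = 0.406), with 67.7 ± 2.43 against 56.5 ± 3.63 CPM. *Hsd17b2* was lower in every KO library at gd16.5, by -0.21 on the log2 scale (SE 0.09, edgeR adjusted p = 0.45). At gd19.5 each KO library was lower than any WT library for *Cyp11a1* (167 ± 11.7 against 202 ± 20.7 CPM, log2 difference -0.30, SE 0.09, edgeR adjusted p = 0.204) and *Hsd11b1* (386 ± 24.3 against 438 ± 6.20 CPM, -0.21, SE 0.07, adjusted p = 0.282).
Sums of cell markers separated the genotypes at these stages as well. At gd14.5 the KO libraries held less labyrinth (651 to 707 against 728 to 821 CPM) and yolk sac marker RNA (106 to 120 against 137 to 214 CPM) and slightly more of the weak ovarian markers (2.89 to 3.33 against 2.23 to 2.82 CPM). Most of that ovarian sum was 1 gene, *Inha* (2.80 to 3.25 against 2.02 to 2.79 CPM). At gd16.5 they held more giant cell marker RNA, 24958 to 29156 CPM against 16640 to 23769 CPM in WT, and more spongiotrophoblast and glycogen cell marker RNA, 46261 to 50307 against 27582 to 38621 CPM. They held less labyrinth (382 to 589 against 597 to 702 CPM), smooth muscle (390 to 470 against 510 to 700 CPM) and NK cell marker RNA (7.58 to 12.3 against 21.4 to 39.1 CPM) at that stage. The NK cell sum was mostly *Prf1* (5.85 to 10.48 against 20.2 to 36.8 CPM). *Eomes* and *Gzma* overlapped. *Ncr1* and *Klrb1c*, both near or under the floor of detection, were higher in every KO library. At gd19.5 the KO libraries held less decidual stroma (1818 to 2161 against 2361 to 3618 CPM), NK cell (6.34 to 10.6 against 10.96 to 14.4 CPM) and ovarian marker RNA (3.03 to 3.58 against 3.79 to 4.54 CPM). The decidual sum was mostly *Prl8a2* (1719 to 2054 against 2262 to 3525 CPM). *Wnt4* was higher in every KO library (20.6 to 27.1 against 18.8 to 20.3 CPM), and *Hand2*, *Hoxa10* and *Bmp2* overlapped. The NK cell sum was again mostly *Prf1*, which overlapped at this stage (4.98 to 9.52 against 9.37 to 12.7 CPM). *Eomes* was lower in every KO library (0.742 to 0.886 against 1.04 to 1.23 CPM), and *Ncr1*, *Klrb1c* and *Gzma* overlapped. The ovarian sum was mostly *Inha* (2.79 to 3.36 against 3.59 to 4.22 CPM). The part of these markers in the enzyme differences was not tested. Fitted with all other libraries but without the 3 yolk sac-rich libraries of gd16.5, the gd16.5 differences were 0.30 for *Cyp17a1*, 0.23 for *Star* and -0.11 for *Hsd17b2*. That fit was chosen after seeing the data and kept only replicate 3 of KO gd16.5, so these values are not group estimates.

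**Figure D5:**
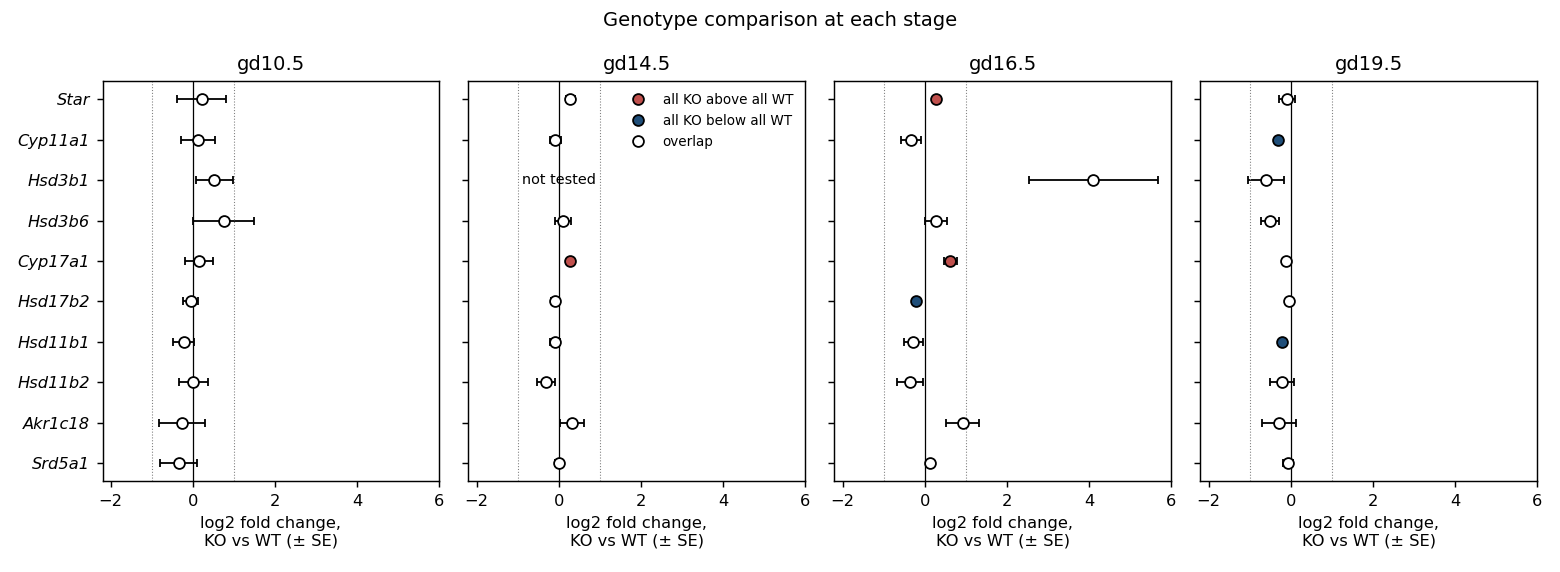
Log2 fold change of KO against WT (± SE, edgeR) for the 10 enzymes at each stage, with red points where all KO libraries lay above all WT libraries, blue points where all lay below and white points where they overlapped. The red and blue points lie between -0.30 and 0.62, and *Hsd3b1* at gd16.5 stands at 4.10 with an SE of 1.57 and overlapping libraries.

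The largest genotype difference was that of *Hsd3b1* at gd16.5 (log2 difference 4.10, SE 1.57, edgeR adjusted p = 0.433). Fitted with all other libraries but without the 3 yolk sac-rich libraries of that stage, it was 0.10. That fit was chosen after seeing the data and kept only replicate 3 of KO gd16.5. It left out every gd16.5 library with raised *Hsd3b1*, also those with Y-linked transcripts, so a small value was fixed beforehand. The part of the yolk sac transcripts in this difference was not tested. *Hsd3b1* was also the enzyme with an unadjusted p under 0.05 in the interaction (edgeR adjusted p = 0.671). At gd10.5 the genotype differences moved with KO replicate 2: that of *Hsd3b6* was 0.75 with it and 1.25 (SE 0.37) without it, that of *Star* 0.21 and 0.66, that of *Cyp11a1* 0.12 and 0.49, that of *Cyp17a1* 0.14 and 0.40, that of *Hsd11b2* 0.01 and -0.44, that of *Akr1c18* -0.26 and 0.09, and that of *Srd5a1* -0.35 and 0.05, with an edgeR adjusted p of 0.999 for each without it. The ratios gave KO minus WT differences of -0.75 for *Hsd3b6* to *Hsd3b1*, 0.03 for *Hsd11b1* to *Hsd11b2* and 0.31 for *Akr1c18* to *Cyp11a1*, with adjusted p = 0.509, 0.893 and 0.509 by a two-sided exact permutation test within stage over 160000 arrangements, in which 1.25e-05 was the smallest p possible.

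Seen as shares of the variance of log2 CPM over the 24 libraries, stage took 83.3% to 96.7% for 9 of the enzymes, highest for *Hsd11b2* and lowest for *Hsd11b1*, and genotype 0.000194% to 2.20%. For *Hsd3b1* stage took 34.4%, genotype 4.21% and the spread within groups 48.2%. These shares were not taken over all genes, where every stage step also called more genes than any genotype comparison. Per length the order of the WT means at gd10.5 was *Cyp11a1* (150 RPKM), *Srd5a1* (140 RPKM), *Star* (139 RPKM), *Akr1c18* (97.8 RPKM), *Hsd3b6* (95.4 RPKM), *Hsd17b2* (59.3 RPKM), *Cyp17a1* (53.5 RPKM), *Hsd11b1* (42.7 RPKM), *Hsd11b2* (15.8 RPKM) and *Hsd3b1* (0.550 RPKM). In this order *Srd5a1* and *Star* differed by less than the SD of either, as did *Akr1c18* and *Hsd3b6*. The differences of *Cyp11a1* from *Srd5a1*, *Star* from *Akr1c18*, *Hsd17b2* from *Cyp17a1* and *Cyp17a1* from *Hsd11b1* were under the larger but over the smaller SD of the pair. At gd19.5 it was led by *Hsd11b1* (103 RPKM) and *Hsd17b2* (95.3 RPKM), with *Cyp17a1* and *Cyp11a1* next and level with each other (both 42.1 RPKM). *Star* (17.5 RPKM) and *Hsd3b6* (4.28 RPKM) stood well below them by then.

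Other genes of the pathway were followed in 6 lists that name no member. Of 13 genes for cholesterol supply and electron transfer, led per length by *Npc2*, *Cyb5a* and *Por*, 0 were called higher from gd10.5 to gd14.5 in WT, and *Scarb1*, the receptor of high-density lipoprotein, was called lower (log2 change -2.13, SE 0.13, edgeR adjusted p = 7.48e-08). At the later WT steps 0 of the 13 were called. The electron transfer genes *Fdx1*, *Fdxr*, *Por* and *Cyb5a*, which serve the mitochondrial and microsomal P450 enzymes, were not among the called genes. Of 9 tested genes among the other 3-beta, 17-beta and 5-alpha enzymes (*Hsd17b4*, *Hsd17b12* and *Hsd17b11* the most abundant), 1 fell and 1 rose at the first WT step, *Hsd17b1* (-3.34, with at most 53 counts in any library) and *Hsd17b14* (2.37), and *Hsd17b7* fell at the second (-1.47). The 3 tested relatives of *Akr1c18* split at the first step, with *Akr1c12* (-2.06) and *Akr1c13* (-1.44) lower and *Akr1c14* (2.72) higher before it fell again (-1.45).
Among 6 tested steroid P450 and conjugating enzymes, with *Sult1e1*, *Cyp11b1* and *Cyp27a1* the most abundant, 2 were called lower and 2 higher at the first WT step, most of all *Cyp11b1*, the 11-beta-hydroxylase (-3.80, SE 0.19, edgeR adjusted p = 9.48e-09), and *Cyp7b1* (1.79). At the second WT step *Cyp21a1*, the 21-hydroxylase of corticoid synthesis, was called higher (2.62, SE 0.62, edgeR adjusted p = 0.00946), with 15 to 94 counts in the WT and 30 to 1354 counts in the KO libraries of gd16.5. Without WT gd16.5 replicate 1, which is rich in yolk sac transcripts, an alternative chosen after seeing the data, the WT change of *Cyp21a1* was 1.37 (SE 0.42, edgeR adjusted p = 0.0431). *Sult1e1*, the estrogen sulfotransferase, rose at both later WT steps (1.63 and 1.36, edgeR adjusted p = 0.000192 and 0.00231). Of 5 tested regulators, led by *Tfap2c*, *Gata2* and *Gata3*, *Tfap2a* alone was called at the first WT step (1.32), and 0 were called later. Of the steroid receptors, led by *Nr3c1*, *Pgr* and *Esr1*, *Pgr* (-1.14) and *Esr1* (-1.03) were called lower at the first WT step, and neither was called later. The KO libraries gave the same first step for *Scarb1* (-2.62), *Akr1c14* (2.01), *Cyp11b1* (-3.94) and *Tfap2a* (1.30), all called. Without KO gd10.5 replicate 2, also chosen after seeing the data, these changes were -3.07, 2.96, -4.46 and 1.58, all called too. In each of the 4 genotype comparisons 0 genes of any list were called by edgeR. Only edgeR is given for these lists, and over all genes DESeq2 called more genes than edgeR at gd16.5 and gd19.5. At an unadjusted p under 0.05 they numbered 0 of 40, 3 of 40, 13 of 40 and 8 of 39 tested over all lists at the 4 stages in turn, beside the shares of all genes given above (11.1% at gd16.5 and 13.5% at gd19.5). Those of gd16.5 included all 5 tested steroid receptors (median log2 difference -0.52) and 3 of 6 P450 and conjugating enzymes. The rest were 2 of 13 cholesterol and electron transfer genes, 1 of 8 other 3-beta, 17-beta and 5-alpha enzymes, 1 of 3 *Akr1c18* relatives and 1 of 5 regulators.

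The genes whose log2 CPM ran most like each enzyme over the 24 libraries were found among 19299 genes. Stage dominates such likeness, since the libraries fall into 4 stages. *Star* and *Hsd3b6* ran closest to *Prl3d2*, a prolactin-family hormone gene of trophoblast (r = 0.98 and 0.99), followed by *Pkp3* and *I730028E13Rik* for *Star*, and by *Star* itself (r = 0.98) and *Bin1* for *Hsd3b6*. *Cyp11a1* ran with *Ttc12*, *Gltp* and *Il12rb1* (r = 0.98 each), *Srd5a1* with *Pkd1l2*, *Bco1* and *Samhd1* (r = 0.98 each) and *Akr1c18* with *Gm45187*, *Dock2* and *Dut* (r = 0.98 each). *Hsd11b2* was nearest to *Cdca7l* (r = 0.99), *Nacad* and *Sarm1*, *Hsd11b1* to *2610301B20Rik* (r = 0.94), *Zfyve9* and *Sbds*, and *Hsd17b2* to *Scd4* (r = 0.96), *Zfp710* and *Elovl4*. By r the weakest likeness was that of *Cyp17a1* to *Endou* (r = 0.93), *Hmga2* and *Ipo7* and of *Hsd3b1* to *Prph* (r = 0.93), *Vdr* and *Rnf138rt1*. The order differed by rank (Spearman rho), with 0.94 for *Cyp17a1* and *Endou* and 0.68 for *Hsd3b6* and *Star*. *Prl3d2* had a rho of 0.75 with *Star* and 0.90 with *Hsd3b6*.

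Cell type markers moved with the stages as well. *Prl3d1* stood at 151 to 2980 CPM in the 6 libraries of gd10.5 and at 14.4 to 68.5 CPM in the 18 later ones, while *Prl3b1*, a giant cell hormone of later gestation, went from 1238 to 6536 CPM to 8511 to 19651 CPM. The 5 NK cell markers summed to 237 to 622 CPM at gd10.5, 44.3 to 120 CPM at gd14.5 and 6.34 to 39.1 CPM later. The 5 decidual stroma markers summed to 2126 to 13128 CPM at gd10.5 and 1534 to 3618 CPM later, and the 5 spongiotrophoblast and glycogen cell markers to 780 to 11766 CPM and then 20020 to 50307 CPM. Within groups, *Srd5a1*, *Star* and *Cyp11a1* ran against the spongiotrophoblast sum, with r = -0.89, -0.84 and -0.83 over the 24 libraries after the group means were taken off. These values rested on KO gd10.5 replicate 2, with its high sum and its low values of these enzymes: over the other 23 libraries r was 0.19, -0.09 and -0.41. The part of these cell types in the stage changes was not tested.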

How the data were processed

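MFI RNA was sequenced from 24 libraries, 3 for each genotype and stage, with a stranded mRNA kit. Per the labels and the submitters' processing notes, the authors trimmed reads with Trim Galore 0.6.4, aligned them to GRCm38 with STAR 2.7.3a and counted them per gene with featureCounts (Subread 2.0.0) at default settings, which use no strand and leave out reads that fit several places. The deposited values are whole-number counts per gene, not normalized, with each gene's exonic length in bases. Libraries held 20975717 to 37383108 counts, and replicates of every group differed by more than sampling noise.

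Counts were tested with edgeR 4.0.16 (quasi-likelihood, TMM scaling, filterByExpr with a minimum count of 10 and total of 15), adjusted by Benjamini-Hochberg over all genes tested, and called where the adjusted p was under 0.05 with a log2 fold change above 1 in size (interaction: adjusted p alone). Genotypes were compared within the 6 libraries of a stage, and stages within the 12 libraries of a genotype, so that successive steps share a stage. CPM used TMM library sizes over 24 libraries, RPKM the deposited lengths, and log2 CPM a prior count of 2. Alternatives were DESeq2 1.42.0, limma voom 3.58.1 with quality weights, other scaling, filters, thresholds, a replicate block and leaving out each library. Scripts were tested on simulated data first. Transcripts were compared with BLAST 2.17.0. Promoter windows came from RefSeq (GRCm38.p6).

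The 10 enzymes and the lists of markers and pathway genes were chosen with earlier results of these data known. All 10 enzymes are named. Of each pathway list, the 3 most abundant genes per length and the 2 called genes with the largest change at each WT step are named, except that some results of these lists are not reported here. For each enzyme, the 3 genes of highest r are named. *Fdx1*, *Fdxr*, *Hsd3b2*, *Prl3d1*, *Prl3b1*, *Lamb3* and the overlapping genes are named outside this rule.

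KO libraries are numbered 1 to 3 as in their descriptions and the count table (their titles run from 3 to 5). The labels do not say whether the same replicate numbers in WT and KO mark pairs, and the main tests used no pairing. Same-numbered deviations correlated at over 0.1 in 5 of 12 pairs of a stage (-0.46 to 0.41). Differently numbered libraries were not compared, so these values cannot settle whether the libraries were paired.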

Additional observations from a re-analysis of the deposited data

How the results depend on the processing

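Of 18 called changes of single enzymes, 15 were called under every alternative run and 0 reversed; the exceptions were *Hsd3b6* in WT from gd16.5 to gd19.5 and *Hsd3b1* and *Cyp17a1* in KO from gd14.5 to gd16.5. No alternative called an enzyme in a genotype comparison or the interaction. Some gave an adjusted p under 0.05 with a difference under the fold limit. These were for *Star* and *Hsd11b2* at gd14.5, *Cyp17a1* at gd16.5 and *Cyp11a1* and *Hsd3b6* at gd19.5. The counts of enzymes called at the step from gd10.5 to gd14.5, 6 in each genotype, stayed within 1.5 times. In WT from gd14.5 to gd16.5 the count of 1 became 5 without a fold limit, 3 without the expression filter, 3 with DESeq2, 2 with a replicate block, 2 in a fit of the 6 libraries alone and 1 to 3 with a library left out. In WT from gd16.5 to gd19.5 the count of 2 became 4 without a fold limit, 1 with limma voom, 1 in a fit of all 24 libraries and 1 to 2 with a library left out. In KO from gd14.5 to gd16.5 the count of 3 became 5 without a fold limit. The fit without both yolk sac-rich KO libraries kept only replicate 3 of KO gd16.5, so its count is not given. In KO from gd16.5 to gd19.5 the count of 0 became 1 without the filter, with DESeq2 and in a fit of all 24 libraries, and 0 to 1 with a library left out. The cause of these changes was not tested. Among the ratios, the *Hsd3b6* to *Hsd3b1* difference from gd10.5 to gd14.5 was -2.45 by medians (exact permutation, adjusted p = 0.06). With a library left out, it ran from -2.90 to -2.005 (lost with 1 of 12), its step to gd16.5 from -4.77 to -2.68 (lost with 5) and its step to gd19.5 from 1.72 to 3.80 (gained with 1). For *Hsd11b1* to *Hsd11b2* the first step ran from -1.08 to -0.65 (lost with 8) and the last from 0.99 to 1.38 (lost with 7), and for *Akr1c18* to *Cyp11a1* the step to gd16.5 ran from -0.90 to -0.46 (gained with 1). A block on the replicate number left the number of enzymes called equal in 10 of 12 comparisons. Over all genes it moved the gd19.5 genotype count from 4 to 9 and the KO count from gd16.5 to gd19.5 from 128 to 11, and DESeq2 gave 45 genes at gd16.5 (edgeR 1), 18 at gd19.5 and 26 for the interaction (edgeR 0). Another scaling (DESeq2's size factors within edgeR) moved the median of all genes by at most 0.00736. Depth limits *Hsd3b1*, which had 3 to 10 counts at gd14.5, and *Akr1c18* and *Hsd11b2* from gd16.5 on, with 22 to 90 counts.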
